A study of Homo sapiens with 9 samples.

Results

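The 10 genes described here make and modify long-chain fatty acids: SREBF1, ACLY, ACACA, FASN, SCD, ACSS2, ELOVL6, FADS1, FADS2 and THRSP. They were chosen by symbol from a table of 28307 genes, and 9 of the 10 passed the filter on low counts that left 15619 genes for testing. RNA was sequenced from SW620, an established cell line derived from a lymph node metastasis of human colon cancer and labelled WT in genotype, kept in suspension in plates that cells cannot attach to, in a medium with insulin, basic FGF and EGF. Cells were given streptomycin (SM) at 120 µM, dihydrostreptomycin (DSM) at 120 µM, or neither drug (untreated), and were collected after 48 h. SM is an aminoglycoside antibiotic, and in DSM the aldehyde of its streptose sugar is reduced to an alcohol. Each group had 3 libraries, numbered 1 to 3 and called biological replicates by the design text. What a number shares between groups is not stated, so p-values measure the spread between these libraries. In fits with the replicate number as a block, p-values measure the spread left after differences between the numbers are removed.

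Fatty acid synthesis starts in the cytosol from acetyl-CoA, which ACLY makes from citrate and ACSS2 from acetate. ACACA carboxylates acetyl-CoA to malonyl-CoA, FASN builds palmitate from both, ELOVL6 lengthens palmitate, and SCD puts a double bond into the saturated chain. FADS1 and FADS2 are the delta-5 and delta-6 desaturases of polyunsaturated fatty acids, THRSP is a small protein linked to lipogenesis in liver and fat, and SREBF1 encodes SREBP-1, the transcription factor that drives most of these genes when insulin signalling is high.

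Library totals lay between 39315662 counts (SM replicate 2) and 65562227 counts (untreated replicate 1). The first principal component held 39.6% of the variance and separated the 3 libraries numbered 1 from the 6 numbered 2 and 3. SM replicate 2 stood apart on the second component (-28.8, against -7.00 to 13.6 in the other libraries) and had the fewest genes with a count, 18316 against 19211 to 19613. The epithelial markers KRT8, KRT18 and EPCAM averaged 6445, 3484 and 436 CPM (a gene's count scaled to the size of its library) over the 9 libraries, whereas CDX1 had at most 1 count in any library and KRT20 and LGALS4 averaged 0.274 and 0.323 CPM. Summed colon epithelium markers spanned 11300 to 13540 CPM with SM, 11580 to 14540 CPM with DSM and 11820 to 14870 CPM in untreated cells. Of markers of cells known for fat storage or secretion, the adipocyte list summed to 12.4 to 12.8 CPM with SM, 11.7 to 13.7 CPM with DSM and 12.8 to 12.9 CPM in untreated cells, with LEP at 0, ADIPOQ at no more than 4 counts and LPL at no more than 2. The hepatocyte list summed to 33.7 to 48.6 CPM with SM, 40.0 to 52.9 CPM with DSM and 39.3 to 49.7 CPM in untreated cells, with TTR at 0. The fibroblast list summed to 12.8 to 25.3 CPM with SM, 16.6 to 26.2 CPM with DSM and 16.0 to 27.2 CPM in untreated cells, with COL3A1, DCN and FAP at 0. The leukocyte list summed to 22.6 to 24.4 CPM with SM, 23.8 to 29.6 CPM with DSM and 21.7 to 26.0 CPM in untreated cells, with no marker at 0 in all libraries and PTPRC at no more than 6 counts. In bulk RNA, fewer cells of a type and less RNA per cell cannot be told apart.

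Relative to transcript length, the desaturase SCD and the synthase FASN were the most abundant of the 10. In untreated cells SCD averaged 296 ± 38.4 CPM per kilobase of exon and FASN 227 ± 21.3 (SD, n = 3), followed by ACLY at 159 ± 9.27. SREBF1 at 33.4 ± 3.54, ACACA at 21.3 ± 0.763 and FADS1 at 18.3 ± 0.934 CPM per kilobase formed a middle tier. The lowest of the tested genes were ELOVL6 at 5.88 ± 0.547, ACSS2 at 5.77 ± 0.602 and FADS2 at 3.69 ± 0.730 CPM per kilobase. Of neighbours in this order, only ELOVL6 and ACSS2 had overlapping ranges in untreated cells, and the means kept this order with SM and with DSM. Lengths are unions of protein-coding exons in GENCODE 29, which may not be the annotation the counts were made with. THRSP had 0 or 1 read in every library, 5 reads in all, under the 3 counts (0.0458 to 0.0763 CPM) taken as the limit that a count of 0 allows, and was not tested.

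The genes lie on 5 chromosomes of the build GRCh38.p14. SREBF1 (chr17:17811334-17836986), ACACA (chr17:37084992-37406836), ACLY (chr17:41866917-41930545) and FASN (chr17:82078338-82098236) are on chromosome 17. SCD (chr10:100347233-100364826), ACSS2 (chr20:34874989-34927959) and ELOVL6 (chr4:110045846-110199202) stand alone. FADS1 (chr11:61799627-61817003) and FADS2 (chr11:61816203-61867354) share 801 bases and THRSP (chr11:78063861-78068351) is on the same chromosome. Whether counting used the strand is not given in the sources used here. How reads from the stretch shared by FADS1 and FADS2, or from 120 bases shared by SREBF1 and its neighbour RAI1, were assigned is therefore not known. The same holds for THRSP, whose 4491 bases all lie within the span of NDUFC2-KCTD14 (0 counts in all). It also holds for 16724 bases that ACACA shares with C17orf78 (10 counts in all). These are overlaps of whole gene spans, which may not all be exons.

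The 250 bases upstream of SREBF1 and SCD are shown because both genes were lower with SM than with DSM or no drug once replicate numbers were paired, and because their listed start sites coincide with the ends of the annotated genes. The sequences are from RefSeq (GRCh38.p14), written 5′ to 3′ on the strand of the gene, at chr17:17836987-17837236 on the minus strand for SREBF1 and chr10:100346983-100347232 on the plus strand for SCD. Capitals mark the CCAAT box, the letters bound by NF-Y, and the GC box GGGCGG, the letters bound by SP1, on either strand, so that they also appear as ATTGG and CCGCCC.
SREBF1: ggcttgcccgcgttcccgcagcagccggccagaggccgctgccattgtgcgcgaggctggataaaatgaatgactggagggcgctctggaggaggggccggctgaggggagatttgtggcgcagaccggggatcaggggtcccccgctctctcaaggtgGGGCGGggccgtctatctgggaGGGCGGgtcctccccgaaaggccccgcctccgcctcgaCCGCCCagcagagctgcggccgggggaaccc
SCD: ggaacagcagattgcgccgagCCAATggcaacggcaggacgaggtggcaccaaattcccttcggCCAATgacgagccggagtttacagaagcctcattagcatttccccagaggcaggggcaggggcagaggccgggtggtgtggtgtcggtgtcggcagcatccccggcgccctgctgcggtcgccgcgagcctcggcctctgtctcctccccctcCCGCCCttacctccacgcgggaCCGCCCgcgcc
SREBF1 held 3 GC boxes, which start at positions -91, -69 and -31 from the start site, and no CCAAT box. SCD held CCAAT boxes that start at -229 and -186 and GC boxes that start at -33 and -11. A promoter was listed for 9 of the 10 genes, THRSP included and FASN not. Of these, 7 had a GC box, against 42.6% of 35116 promoters, and 4 (ACLY, ACACA, SCD and the untested THRSP) had a CCAAT box, against 32% of promoters. The sterol regulatory element searched (TCACNCCAC) and the E-box CACGTG were in 0 of these 9, against 0.883% and 6.34% of promoters, which says only that these letters are not in these windows.

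**Figure D1:**
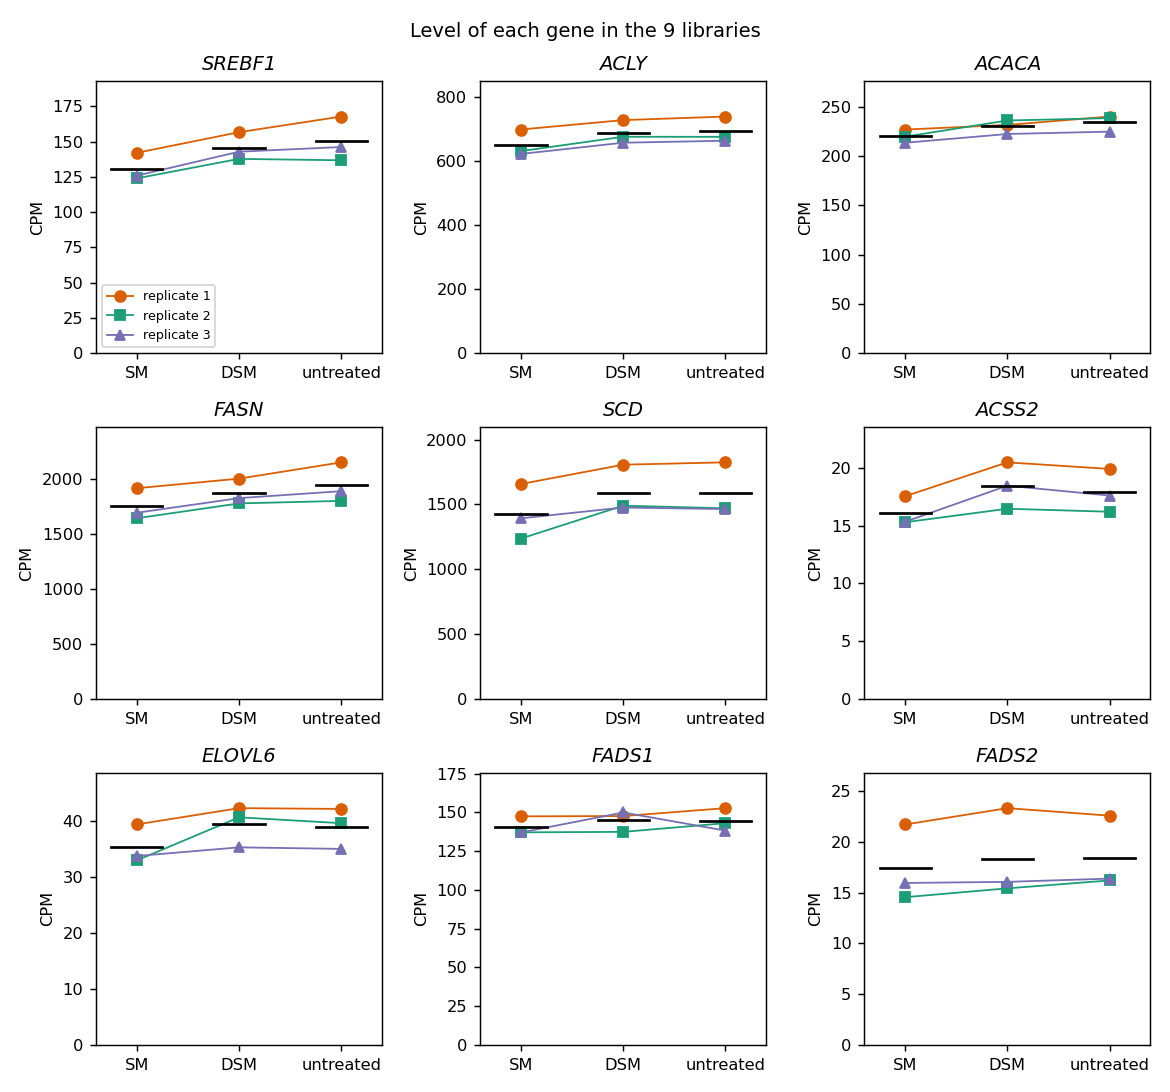
CPM of the 9 tested genes (vertical axis, from 0) with SM, with DSM and in untreated cells, with libraries of the same replicate number joined by a line and the group mean as a black bar. In every gene the library numbered 1 was above the mean of those numbered 2 and 3 in its group, and the SM point was the lowest of its line.

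The first comparison asked how SM changed these genes. With the replicate number as a block, SREBF1, FASN and SCD fell with SM by about the same proportion, 12.9%, 10.1% and 10.0%, and none of the 9 rose. Without the block no gene of the 9 passed edgeR's quasi-likelihood test (adjusted p 1.00 for each), where 0.0192% of all tested genes passed and 2.34% had an unadjusted p under 0.05. SREBF1 was the 1 member with such an unadjusted p. With the block 3 of 9 passed as lower, against 1.54% of all genes as lower, 1.20% as higher and 2.74% in both directions. Without the libraries numbered 1, SREBF1 was the 1 of the 9 that passed with the block (-0.18, SE 0.05, adjusted p = 0.0276). Without SM replicate 2, SREBF1 (-0.22, adjusted p = 4.25e-04) and FASN (-0.15, adjusted p = 0.0159) passed and SCD did not. The median log2 fold change of the 9 was -0.13 with the block, against -0.001 over all tested genes.

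SREBF1, the transcription factor of the set, had 142, 124 and 126 CPM in SM replicates 1, 2 and 3, against 168, 137 and 146 CPM in untreated replicates 1, 2 and 3. Every SM library lay below the untreated library of its number, while SM replicate 1 lay above untreated replicate 2, so the groups overlapped. The means were 131 ± 9.93 CPM with SM and 150 ± 15.9 CPM in untreated cells (SD, n = 3). Without the block the log2 fold change was -0.20 (SE 0.08), and with it -0.20 (SE 0.03, 95% interval -0.27 to -0.13, edgeR adjusted p = 6.51e-04). It passed in all 15 fits with a block, whose adjusted p ranged up to 0.0356 without untreated replicate 1.

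FASN, the synthase that builds palmitate, had 1916, 1643 and 1693 CPM with SM, against 2151, 1801 and 1889 CPM in untreated cells. Pair by pair its log2 differences were -0.17, -0.13 and -0.16, a narrow spread, although the groups overlapped because SM replicate 1 exceeded untreated replicates 2 and 3. The means were 1751 ± 146 CPM with SM and 1947 ± 182 CPM in untreated cells. With the block the log2 fold change was -0.15 (SE 0.03, interval -0.22 to -0.09, adjusted p = 0.00828). The adjusted p was above 0.05 without untreated replicate 1 (0.166), untreated replicate 2 (0.0605), untreated replicate 3 (0.121) or the 3 libraries numbered 1 (0.0502).

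SCD, the delta-9 desaturase, had 1657, 1237 and 1393 CPM with SM, against 1824, 1470 and 1464 CPM in untreated cells. The difference was widest in pair 2, at -0.25 on the log2 scale, against -0.14 in pair 1 and -0.07 in pair 3, and the groups overlapped. Means were 1429 ± 212 CPM with SM and 1586 ± 206 CPM in untreated cells, and the blocked log2 fold change was -0.15 (SE 0.04, interval -0.23 to -0.08, adjusted p = 0.0205). The adjusted p was above 0.05 without SM replicate 2 (0.118, log2 fold change -0.10), untreated replicate 1 (0.167), untreated replicate 2 (0.244), untreated replicate 3 (0.0994) or the libraries numbered 1 (0.0531).

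The 6 remaining genes did not pass, with or without the block. ACLY, which makes acetyl-CoA from citrate, had 700, 632 and 623 CPM with SM, against 740, 677 and 665 CPM in untreated cells, and differed by -0.09 on the log2 scale with the block (SE 0.03, adjusted p = 0.137). ACACA, the carboxylase, had 227, 220 and 214 CPM with SM, against 240, 239 and 225 CPM in untreated cells, also -0.09 (SE 0.03, adjusted p = 0.132). In ACLY the 3 pairs differed by nearly the same amount, and DESeq2 with the block placed it under the threshold (adjusted p = 0.0385). ACSS2, which makes acetyl-CoA from acetate, had 17.5, 15.3 and 15.3 CPM with SM, against 19.9, 16.2 and 17.6 CPM in untreated cells (-0.16, SE 0.06, adjusted p = 0.157). ELOVL6, the palmitate elongase, had 39.4, 33.0 and 33.8 CPM with SM, against 42.2, 39.7 and 35.1 CPM in untreated cells (-0.13, SE 0.05, adjusted p = 0.153). Here pair 2 stood apart, at -0.26 on the log2 scale, against -0.10 in pair 1 and -0.05 in pair 3, and without SM replicate 2 the blocked ELOVL6 value was -0.07 (adjusted p = 0.482). FADS1 averaged 141 ± 5.96 CPM with SM and 145 ± 7.34 CPM in untreated cells (-0.04, SE 0.04, adjusted p = 0.641), and FADS2 17.4 ± 3.80 and 18.4 ± 3.63 CPM (-0.08, SE 0.06, adjusted p = 0.557).

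All 9 genes had lower CPM with SM in 3 of 3 pairs, as did 18.9% of all tested genes, and in 0 of the 9 did the groups fail to overlap, against 3.46% of tested genes that were lower without overlap. The 9 genes varied together, with a median Pearson r between genes of 0.801 over the 9 libraries. After replicate means were removed it was 0.765, so the 9 are not independent observations. The colon epithelium markers KRT19 and VIL1 were also lower with SM in the blocked fit, by 0.18 (SE 0.03, adjusted p = 0.00173) and 0.14 (SE 0.03, adjusted p = 0.0119) on the log2 scale. They were 2 of 9 tested markers of that list, against 1.54% of all tested genes lower. All 9 had a negative fold change, with a median of -0.11 against -0.001 over all tested genes. Of the other marker lists, the fibroblast marker LUM was called (-0.41, SE 0.10, adjusted p = 0.0271), from 7.41 ± 4.07 CPM with SM and 9.60 ± 3.11 CPM in untreated cells. The part of these markers in the fatty acid genes' differences was not tested.

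**Figure D2:**
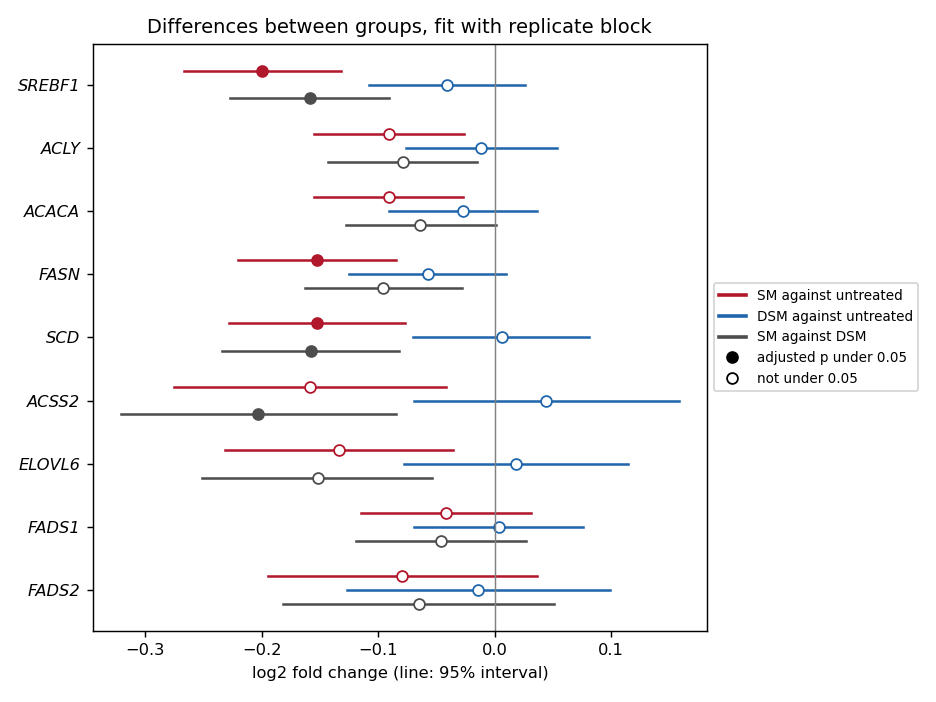
Log2 fold changes of the 9 tested genes from the fit with the replicate block, with 95% intervals, for SM against untreated, DSM against untreated and SM against DSM, filled where the adjusted p was under 0.05. Both SM comparisons lie below 0 for every gene, while the DSM intervals all include 0.

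The second comparison set DSM against untreated cells. None of the 9 genes passed with or without the block (adjusted p 1.00 without it and 0.999 with it), where 0% of all tested genes passed in either fit and 103 genes, 0.659%, had an unadjusted p under 0.05, 0 of them members. DESeq2 also called 0 of the 9 genes with the block or without it. SREBF1 had 157, 138 and 143 CPM with DSM, against 168, 137 and 146 CPM in untreated cells. FASN had 2003, 1778 and 1826 CPM with DSM, against 2151, 1801 and 1889 CPM, and SCD 1806, 1490 and 1476 CPM with DSM, against 1824, 1470 and 1464 CPM in untreated cells. In SCD the libraries of a number were almost level, and in SREBF1 and FASN the wider gap was in number 1. ACLY had 729, 677 and 658 CPM with DSM, against 740, 677 and 665 CPM in untreated cells, and ACACA 232, 236 and 222 CPM, against 240, 239 and 225 CPM. ACSS2 averaged 18.5 ± 2.01 CPM with DSM and 17.9 ± 1.87 CPM in untreated cells, ELOVL6 39.5 ± 3.67 and 39.0 ± 3.62 CPM, FADS1 145 ± 6.64 and 145 ± 7.34 CPM, and FADS2 18.3 ± 4.39 and 18.4 ± 3.63 CPM (SD, n = 3 each). In each of these 6 genes the groups overlapped.

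The blocked intervals show what sizes of change these libraries could hold once differences between the replicate numbers are removed. The interval of the log2 fold change with DSM was -0.11 to 0.03 for SREBF1, -0.13 to 0.01 for FASN, -0.07 to 0.08 for SCD and -0.09 to 0.04 for ACACA. It was -0.08 to 0.05 for ACLY, -0.07 to 0.16 for ACSS2, -0.08 to 0.11 for ELOVL6, -0.07 to 0.08 for FADS1 and -0.13 to 0.10 for FADS2. In the main model, without the block, the interval of every gene was wider. There it was -0.229 to 0.142 for SREBF1, -0.236 to 0.118 for FASN, -0.289 to 0.297 for SCD and -0.484 to 0.465 for FADS2. The narrowest was that of ACACA, at -0.127 to 0.072. Of the 9 blocked estimates 5 were negative and 4 positive, with a median of -0.01 against 0 over all genes. In all 3 pairs, 2 genes were lower (15.1% of all genes) and 2 were higher (14.3% of all genes).

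The third comparison set SM against DSM, which share dose and time and differ in the aldehyde. SREBF1, SCD and ACSS2 were lower with SM in the blocked fit, by 10.4%, 10.4% and 13.1%. Without the block 0 of 9 passed, as did 0% of all genes, of which 2.54% had an unadjusted p under 0.05, 0 of them members. With the block 3 of 9 passed as lower, against 2.15% of all genes as lower, 1.73% as higher and 3.88% in both directions. Without the libraries numbered 1, SREBF1 (-0.17, adjusted p = 0.0269) and SCD (-0.17, adjusted p = 0.0155) were the 2 of the 9 that passed. Without SM replicate 2, SREBF1 (-0.18, adjusted p = 0.00352) and ACSS2 (-0.24, adjusted p = 0.0303) passed. This comparison uses the same SM libraries as the first, so its values are not independent of those above.

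SREBF1 had 142, 124 and 126 CPM with SM, against 157, 138 and 143 CPM with DSM, with pair differences of -0.14, -0.15 and -0.18 on the log2 scale. The 3 pairs differed by nearly the same amount, and only SM replicate 1 reached the range of the DSM libraries. The blocked log2 fold change was -0.16 (SE 0.03, interval -0.23 to -0.09, adjusted p = 0.0049), and the adjusted p was 0.0502 without DSM replicate 2. SCD differed by -0.16 (SE 0.04, interval -0.23 to -0.08, adjusted p = 0.0126), with pair 2 again the widest at -0.27. Its adjusted p was above 0.05 without SM replicate 2 (0.0968) or DSM replicate 2 (0.153), and with only the SM and DSM libraries in the fit (0.0625).

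ACSS2 had 17.5, 15.3 and 15.3 CPM with SM, against 20.5, 16.5 and 18.5 CPM with DSM. The gap was wider in numbers 1 and 3, at -0.22 and -0.27 on the log2 scale, than in number 2, at -0.11, and the groups overlapped. The blocked log2 fold change was -0.20 (SE 0.06, interval -0.32 to -0.09, adjusted p = 0.0453), just under the threshold. With library totals in place of TMM scaling the adjusted p was 0.0503, and by DESeq2 with the block 0.0871. When 1 library was left out at a time it passed only without SM replicate 2 (0.0303), and otherwise lay between 0.0695 and 0.224.

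The 6 genes that did not pass had blocked intervals of -0.14 to -0.02 for ACLY (adjusted p = 0.19), -0.13 to 0.001 for ACACA (0.317), -0.16 to -0.03 for FASN (0.112) and -0.25 to -0.05 for ELOVL6 (0.0763). FADS1 had -0.12 to 0.03 (0.584) and FADS2 -0.18 to 0.05 (0.631). DESeq2 with the block placed FASN under the threshold (adjusted p = 0.0265). All 9 genes were lower with SM in 3 of 3 pairs, against 16.2% of all tested genes, though FADS1 differed by only -0.002 and -0.003 in pairs 1 and 2. The groups overlapped in all 9, and 3.16% of all genes were lower without overlap. The median was -0.10 against 0 over all genes. Markers were lower with SM in the same fit too, with 3 of 9 tested colon epithelium markers called, KRT19 (-0.14, adjusted p = 0.0158), VIL1 (-0.14, adjusted p = 0.00739) and CDH1 (-0.27, adjusted p = 0.0396), and 0 called higher. Over all tested genes 2.15% were lower and 1.73% higher. The hepatocyte marker SERPINA1 (-0.26, adjusted p = 0.00603) and the fibroblast marker LUM (-0.46, adjusted p = 0.00877) were also lower, from 1 of 3 and 1 of 4 tested markers, and 0 adipocyte or leukocyte markers were called by edgeR. Their part in the differences of SREBF1, SCD and ACSS2 was not tested.

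Most of these genes were higher in the libraries numbered 1. In the fit with group and number, 8 of the 9 were higher in the libraries numbered 1 than in those numbered 2 and 3 and 0 were lower, against 21.7% of all tested genes higher and 20.3% lower (42.0% in all). The median log2 difference was 0.19, against -0.005 over all genes. In each of the 3 groups the library numbered 1 was above the mean of the other two in all 9, as in 32.9% of all genes, although with DSM ACACA was higher in replicate 2 (236 CPM) than in replicate 1 (232 CPM) and FADS1 higher in replicate 3 (149.9 CPM) than in replicate 1 (147.6 CPM).

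FADS2, the delta-6 desaturase, shifted most. It had 21.7, 23.3 and 22.6 CPM in replicate 1 of the SM, DSM and untreated groups, against 14.6, 15.4 and 16.2 CPM in replicate 2 and 16.0, 16.1 and 16.4 CPM in replicate 3. The libraries numbered 1 were clear of all others. Within number 2 the SM library was 14.6 CPM, against 16.2 CPM in the untreated one, and no drug comparison of this gene passed. It was 42.9% higher in replicate 1 (log2 0.52, SE 0.05, adjusted p = 5.05e-09), and its difference was 0.51 with SM, 0.57 with DSM and 0.47 in untreated cells.

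SCD averaged 1762 ± 92.1 CPM in replicate 1, against 1399 ± 141 CPM in replicate 2 and 1444 ± 44.8 CPM in replicate 3, and was 24.1% higher (0.31, SE 0.03, adjusted p = 2.80e-08). ACSS2 averaged 19.3 ± 1.56 CPM in replicate 1, against 16.0 ± 0.617 and 17.1 ± 1.61 CPM in replicates 2 and 3, 16.7% higher (0.22, SE 0.05, adjusted p = 5.65e-04). SREBF1 averaged 156 ± 12.9 CPM in replicate 1, against 133 ± 7.68 and 138 ± 10.9 CPM, 14.7% higher (adjusted p = 4.12e-06). All 3 passed as higher in replicate 1, and whether they differ in size was not tested.

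FASN averaged 2023 ± 119 CPM in replicate 1, against 1741 ± 85.7 CPM in replicate 2 and 1803 ± 100.1 CPM in replicate 3 (0.19, SE 0.03, adjusted p = 6.66e-06). ELOVL6 averaged 41.3 ± 1.64 CPM, against 37.8 ± 4.17 and 34.7 ± 0.827 CPM (0.19, SE 0.04, adjusted p = 5.20e-04), and ACLY 723 ± 20.9 CPM, against 662 ± 25.8 and 649 ± 22.3 CPM (0.14, SE 0.03, adjusted p = 1.50e-04). ACLY, FASN, SCD and FADS2 were the 4 genes whose replicate 1 libraries lay above all 6 others, against 16.7% of all genes.

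FADS1 and ACACA shifted least. FADS1 averaged 149 ± 2.99 CPM in replicate 1, against 139 ± 3.34 and 142 ± 7.09 CPM in replicates 2 and 3 (0.09, SE 0.03, adjusted p = 0.0228). Its adjusted p was above 0.05 with library totals (0.127) and without SM replicate 1 (0.104), DSM replicate 2 (0.0673), untreated replicate 1 (0.196) or untreated replicate 3 (0.116). ACACA averaged 233 ± 6.69 CPM in replicate 1, against 231 ± 10.2 and 220 ± 5.92 CPM, and did not pass (0.05, SE 0.03, adjusted p = 0.189).

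**Figure D3:**
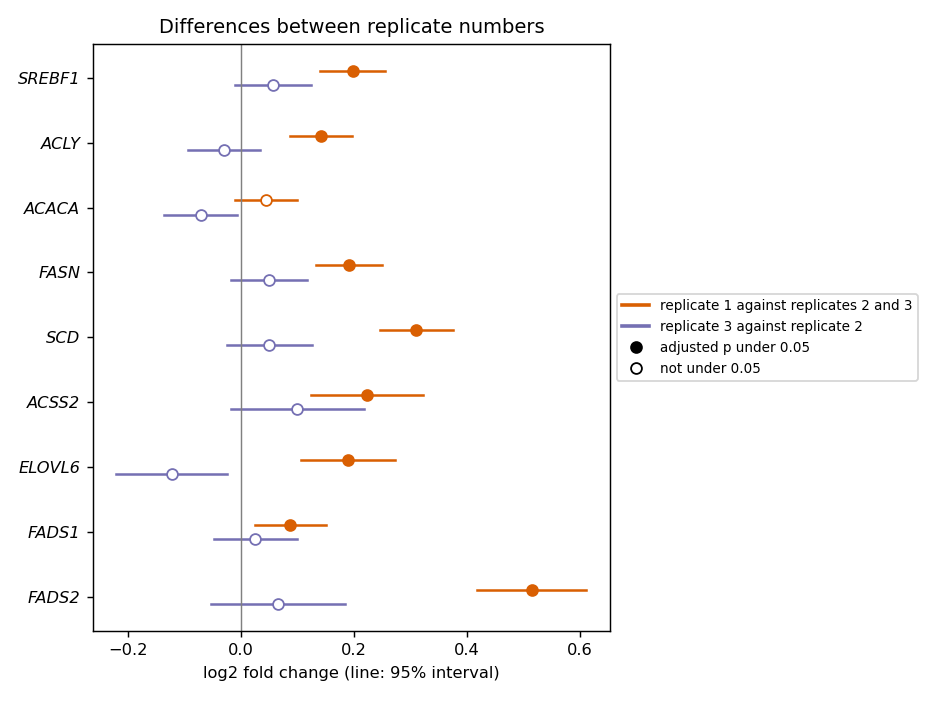
Log2 differences between replicate numbers, with 95% intervals, for replicate 1 against replicates 2 and 3 and for replicate 3 against replicate 2, filled where the adjusted p was under 0.05. FADS2 lies farthest right at 0.52, and all 9 replicate 3 against 2 points are open.

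Replicates 3 and 2 were closer to each other. Of the 9 genes 0 passed between them by edgeR, against 3.68% of all tested genes (1.84% higher and 1.84% lower), and ELOVL6 (-0.12, SE 0.05, adjusted p = 0.18) and ACACA (-0.07, SE 0.03, adjusted p = 0.238) were the members with an unadjusted p under 0.05. Without SM replicate 2, ELOVL6 was lower in replicate 3 (-0.18, adjusted p = 0.0153). A test of any difference between the 3 numbers called 7 of 9, all but ACACA (0.0717) and FADS1 (0.0562), against 40.7% of all genes.

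Other measures differed with the number too. Summed colon epithelium markers were 13540 to 14870 CPM in the libraries numbered 1, against 11420 to 11820 CPM in those numbered 2 and 11300 to 12030 CPM in those numbered 3. Of 9 tested markers 7 were higher and 1 lower in replicate 1, against 21.7% and 20.3% of all tested genes. Summed fibroblast markers were 25.3 to 27.2 CPM in replicate 1, against 12.8 to 16.9 and 13.3 to 19.8 CPM in replicates 2 and 3, and hepatocyte markers 48.6 to 52.9 CPM in replicate 1, against 33.7 to 40.0 and 38.8 to 45.8 CPM. Adipocyte markers summed to 12.4 to 13.7 CPM in replicate 1, against 11.7 to 12.8 and 12.3 to 12.9 CPM in replicates 2 and 3, and leukocyte markers to 21.7 to 23.9 CPM, against 22.6 to 26.0 and 23.6 to 29.6 CPM. Each of these sums rests mostly on a few genes. Over the 9 libraries KRT8, KRT18 and KRT19 averaged 6445, 3484 and 1434 CPM. COL1A1 and LUM averaged 9.55 and 8.99 CPM, and the next fibroblast marker, PDGFRB, 0.41 CPM. SERPINA1 and TF averaged 33.8 and 8.97 CPM, and the next hepatocyte marker, APOA1, 0.44 CPM. CD68 and LYZ averaged 17.1 and 6.44 CPM, and the next leukocyte marker, CSF1R, 0.41 CPM. LIPE, CFD and CIDEC averaged 5.27, 4.27 and 2.70 CPM, and the next adipocyte marker, PLIN4, 0.27 CPM. The part of the marker lists in the shift of the fatty acid genes was not tested.

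Split by sums of squares of log2 CPM over the 9 libraries, the replicate number took the larger share of every member except ACACA. It took 96.8% in FADS2, 76.6% in SCD, 73.5% in ACLY, 67.2% in FASN and 54.0% in SREBF1. The group took 43.4% in SREBF1, 31.1% in FASN, 18.9% in SCD and 2.06% in FADS2, and in ACACA 49.9% against 43.9% for the number. The rest was 34.0% in FADS1 and 12.2% in ELOVL6 and 0.691% to 6.18% in the other 7. Over all tested genes the medians were 14.2% for the group, 52.2% for the number and 24.4% for the rest.

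**Figure D4:**
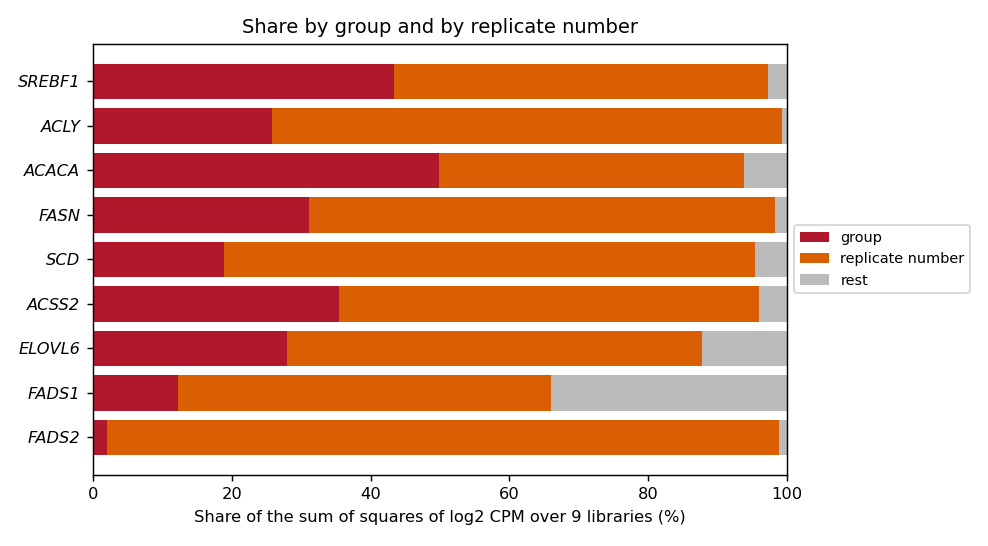
Share of the sum of squares of log2 CPM over the 9 libraries (horizontal axis, in percent) taken by the group, by the replicate number and by the rest, for each tested gene. The number takes 96.8% in FADS2, while the group takes its largest share, 49.9%, in ACACA.

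The genes around this pathway were read from the same blocked fit of SM against untreated. No gene of these lists passed without the block, where 0.0192% of all tested genes did. Among 23 tested other enzymes of fatty acid synthesis, elongation and activation, 1 was higher and 3 were lower, with a median of -0.07. Of all tested genes 1.20% were higher and 1.54% lower. SLC25A1, the carrier that brings citrate out of mitochondria for ACLY, averaged 66.7 ± 4.52 CPM with SM and 76.6 ± 3.84 CPM in untreated cells (-0.20, SE 0.04, adjusted p = 0.0013). Its groups did not overlap, and 3.46% of all tested genes were lower without overlap. ME1, the cytosolic malic enzyme that yields NADPH, went the other way at 74.8 ± 2.07 CPM with SM and 65.7 ± 3.25 CPM in untreated cells (0.19, SE 0.04, adjusted p = 0.00386), also without overlap. ACSL1, an acyl-CoA synthetase, and HSD17B12, a reductase of chain elongation, fell by 0.17 (adjusted p = 0.0274) and 0.14 (adjusted p = 0.0296) on the log2 scale.

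Regulators, assembly genes and LXR targets had 1 or 0 genes called in each direction, which is not read as a result about these lists, where 1.20% of all genes were higher and 1.54% lower. Of 24 regulators of lipogenesis, 1 rose and 1 fell, with a median of -0.03. INSIG1, which holds the SREBP precursor in the endoplasmic reticulum and is itself an SREBP target, averaged 90.7 ± 19.3 CPM with SM and 114 ± 20.5 CPM in untreated cells (-0.33, SE 0.04, adjusted p = 3.52e-05). PPARGC1B, a coactivator, averaged 17.9 ± 2.26 CPM with SM and 14.5 ± 2.74 CPM in untreated cells (0.31, SE 0.06, adjusted p = 0.00541). Of 15 genes of glycerolipid assembly GPAT3, an acyltransferase of the first step, rose by 0.19 (SE 0.04, adjusted p = 0.0027) and 0 fell, with a median of -0.04. Of 5 LXR targets outside lipogenesis LPCAT3, which puts polyunsaturated chains into phospholipids, fell by 0.16 (SE 0.04, adjusted p = 0.00955) and 0 rose, with a median of 0.11.

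Fatty acid oxidation, the opposing pathway, had 0 of 24 genes called by edgeR in the blocked fit, with a median of -0.03. As 2.74% of all tested genes were called, that count is not read as a result about this list. Its most abundant genes were ACADVL, with 295 ± 1.87 CPM with SM and 296 ± 9.79 CPM in untreated cells, and CPT1A, with 278 ± 5.19 and 270 ± 11.7 CPM. The cholesterol list, SREBP targets of the neighbouring pathway together with the LDL receptor, had 17 of 21 genes lower and 0 higher, against 1.54% and 1.20% of all tested genes. Its median was -0.28, against -0.13 for the fatty acid genes.

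**Figure D5:**
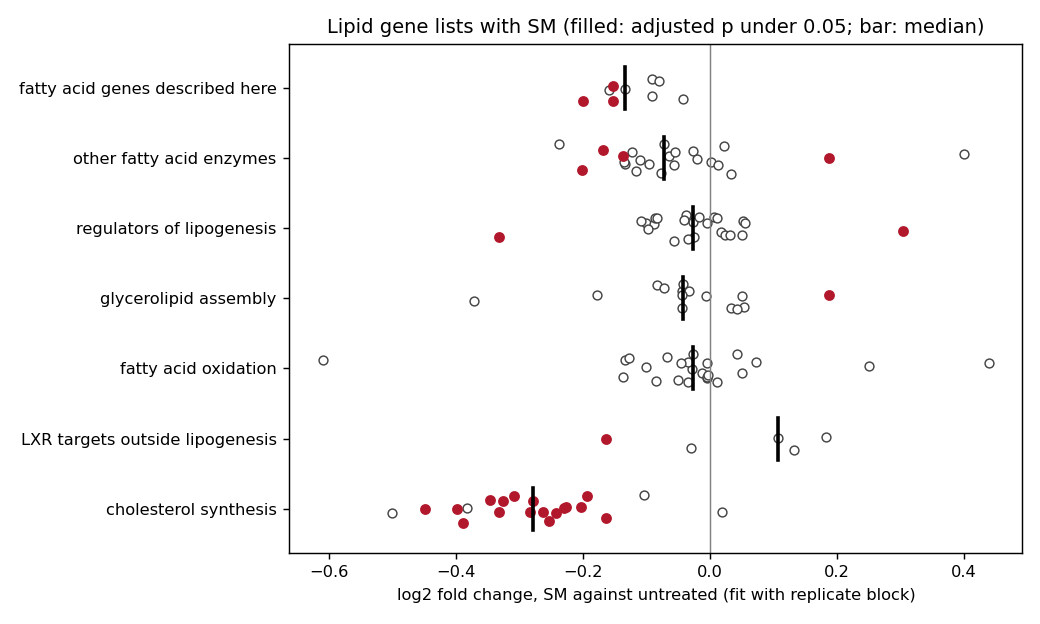
Log2 fold changes of SM against untreated in the fit with the replicate block for each tested gene of 7 lipid lists, with the median as a bar and genes at an adjusted p under 0.05 filled. The cholesterol list sits farthest to the left with a median of -0.28, and the fatty acid genes follow at -0.13.

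In SM against DSM with the block, where 1.73% of all genes were higher and 2.15% lower, other enzymes had 1 higher, ME1 (0.18), and 2 lower, SLC25A1 (-0.14, adjusted p = 0.0218) and the acyl-CoA synthetase ACSL5 (-0.22, adjusted p = 0.0455). INSIG1 (-0.25, adjusted p = 8.78e-04) and LPCAT3 (-0.17) were lower, PPARGC1B (0.30) and GPAT3 (0.17) were higher, oxidation had 0 of 24 called and the cholesterol list 17 of 21 lower. With DSM against untreated, 0 genes of these lists passed in the blocked fit, as did 0% of all tested genes.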

How the data were processed

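The data are mRNA-seq libraries of 9 SW620 cultures. Per the labels' protocols, TRIzol was used for RNA and a NuGEN Universal Plus kit for the libraries. As tools, the submitters' processing notes list the aligner TopHat2 2.1.1 and the counter featureCounts 2.0.0, besides DESeq2 1.26.0, MultiQC 1.10.1, FastQC 0.11.9, cutadapt 3.4 and bcl2fastq 2.20.0.422. They give hg38 as the genome build. How strand and multi-mapping reads were handled, and which annotation was used, is not given in the sources used here. The values are the deposited raw counts, whole reads per gene, without normalization by the authors. The 9 columns of a second deposited table, of normalized values, were not used.

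Tests were run with edgeR 4.0.16 and limma 3.58.1 in R 4.3.3. filterByExpr selected genes (minimum count 10, minimum total 15), and TMM factors were 0.981 to 1.02. CPM are counts scaled by library total and TMM factor, and log2 CPM used a prior count of 2. A robust quasi-likelihood model of all 9 libraries gave two-sided F tests, adjusted over every tested gene by Benjamini-Hochberg at 0.05. The main model had the group as its only term. Within a group no library repeated another: the chi-square per degree of freedom between libraries was 6.80 to 35.7. Libraries of different groups were not compared in this way.

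The labels number replicates 1 to 3 in each group. Deviations from group means correlated at 0.227 to 0.582 in the 9 pairs of libraries with the same number, and at -0.404 to 0.161 in the 18 pairs with different numbers. The numbers were taken to pair the libraries, and results with the replicate block stand beside those without it.

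The members and lists were chosen with earlier results of these data known. All members are named, and of other lists up to 4 called genes with the smallest adjusted p, or, with none called, the 2 of highest mean CPM. Genes of like pattern are the 5 with the highest correlation with the members' mean. The scripts were tested on simulated data. Alternatives were DESeq2 1.42.0, its size factors or library totals for scaling, other filters, only the groups compared, the block with several of these, and each library left out in turn. Leaving out the libraries numbered 1 was added after the data were seen. Coordinates and promoters are RefSeq's, GRCh38.p14.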

Additional observations from a re-analysis of the deposited data

Results flagged for a closer look

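Between SM and DSM, which share dose and time, 3 genes differed by a test of the difference itself in the fit with the replicate block. The log2 difference was -0.159 in SREBF1, -0.158 in SCD and -0.203 in ACSS2, in each case lower with SM in 3 of 3 pairs. None of the 3 passed by edgeR in the fit without the block.

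ELOVL6, the palmitate elongase, was flagged because its 3 SM libraries lay below the untreated libraries of their number, with log2 differences of -0.098, -0.264 and -0.053, and its 3 DSM libraries above them, with 0.005, 0.038 and 0.012, a median of 0.012. The differences with DSM are small beside those with SM. The test of SM against DSM did not pass (edgeR with the block, adjusted p = 0.0763). The opposite movement is not particular to ELOVL6, since ACSS2, named above by its own test, also showed it in every pair. The log2 differences of ACSS2 from untreated were -0.182, -0.083 and -0.199 with SM and 0.041, 0.023 and 0.068 with DSM.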

How the results depend on the processing

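Most calls of the drug comparisons depended on the replicate block. For SM against untreated, the 3 genes called without a block became 5 with no filter, 14 with DESeq2, 0 with only those groups and 73 without the libraries numbered 1. With the replicate block they were 428, and 604 with only those groups, 385 with DESeq2, 427 with its size factors, 390 with library totals and 308 without number 1. Fatty acid genes called were 0 without a block and 3 with it, also 3 with only those groups, with size factors or with library totals, 4 with DESeq2 and 1 without number 1. For DSM against untreated, 0 genes became 4 with the block on only those groups and 1 with the block without number 1. For SM against DSM, 0 genes became 3 with no filter, 11 with DESeq2 and 186 without number 1. With the block they were 606, and 394 with only those groups, 510 with DESeq2, 603 with size factors, 529 with library totals and 627 without number 1. Fatty acid genes called there were 0 without a block, 3 with it, 1 with only those groups, 3 with DESeq2, 3 with size factors, 2 with library totals and 2 without number 1. The cause of these differences was not tested.

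Leaving out 1 library at a time gave 0 to 3 genes (0 of the members) without the block and 149 to 569 (1 to 3) with it for SM against untreated, 0 genes without and 265 to 846 (0 to 2) with it for SM against DSM, 4749 to 6635 (7 to 8) for replicate 1, 177 to 863 (0 to 1) for replicate 3 against 2 and 4546 to 6736 (7 to 9) for any number. With the block, the 428 genes of SM against untreated were 268 without SM replicate 3, and 187, 169 and 149 with untreated replicate 1, 2 or 3 left out. The 606 of SM against DSM were 326 without SM replicate 3, 286 without DSM replicate 2 and 265 without DSM replicate 3. Replicate 3 against 2, with 575, had 863 without SM replicate 2, 242 and 276 without DSM replicates 2 and 3, and 246 and 177 without untreated replicates 2 and 3. Log2 fold changes of single genes turned sign in 33 of 1089 recomputed values, all of them with 1 library left out, 27 for DSM against untreated, 25 in unblocked fits and 8 in blocked ones. Over fits of both kinds the ranges for DSM against untreated were -0.106 to 0.043 for SREBF1, -0.054 to 0.037 for ACLY, -0.112 to 0.018 for FASN, -0.096 to 0.116 for SCD, -0.035 to 0.127 for ACSS2, -0.051 to 0.092 for ELOVL6, -0.046 to 0.043 for FADS1 and -0.223 to 0.165 for FADS2. With the block SREBF1, ACLY, FASN and ACSS2 kept their sign there. For SM against DSM the ranges were -0.083 to 0.005 for FADS1 and -0.259 to 0.146 for FADS2, for SM against untreated -0.268 to 0.098 for FADS2, and for replicate 3 against 2 -0.024 to 0.062 for FADS1. The cause was not tested.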

Other observations

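Genes next to the pathway also differed with the replicate number. Of 23 tested other fatty acid enzymes 11 were higher and 0 lower in the libraries numbered 1 than in those numbered 2 and 3, with a median of 0.11. Acyl-CoA synthetases led: ACSL5 was higher by 0.87 (SE 0.05, edgeR adjusted p = 3.29e-12), ACSL1 by 0.57 (adjusted p = 8.55e-12) and ACSL4 by 0.34 (adjusted p = 3.67e-08) on the log2 scale, followed by HSD17B12 at 0.25. Of 24 oxidation genes 11 were higher and 1 lower, with a median of 0.10, and among those higher were ECI2 (0.22), ACADM (0.20), ETFA (0.15) and HADHA (0.14). The cholesterol list had 19 of 21 higher and 1 lower, with a median of 0.24. Over all tested genes 21.7% were higher, 20.3% were lower and the median was -0.005.

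Of 24 regulators 8 were higher and 4 lower in replicate 1, where 21.7% of all tested genes were higher and 20.3% lower. These counts, and those of assembly genes and LXR targets below, are not read as results about the lists. MLXIPL, which encodes the glucose-responsive factor ChREBP, was lower in replicate 1 (-0.65, SE 0.05, adjusted p = 9.31e-11), as was PPARGC1B (-0.38), while INSIG2 (0.45) and INSIG1 (0.41) were higher. MLXIPL also separated replicate 3 from replicate 2, at 0.59 (SE 0.05, adjusted p = 2.57e-07). There 3.68% of all tested genes were called and 0 of the 9 fatty acid genes, a count not read as a result about them. Of 15 assembly genes 4 were higher, among them the lipase PNPLA3 (0.78, adjusted p = 2.70e-09) and the lipid droplet coat gene PLIN2 (0.23), and 4 were lower. Of 5 LXR targets LPCAT3 was higher (0.24) and 0 were lower.

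The genes whose log2 CPM followed the mean of the 9 fatty acid genes most closely over the 9 libraries were DPYSL3 (Pearson r 0.994), CNN3 (0.993), MYD88 (0.992), KCNMB4 (0.992) and TP53I3 (0.991). They were the highest of 10285 genes of at least 5 CPM, of which 705 had an r above 0.9. The libraries share their number and group, so this is a description only.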
